A study of Mus musculus and Homo sapiens with 6 samples.

Results

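The 5 genes for receptor-regulated and common SMAD proteins, Smad1, Smad2, Smad3, Smad4 and Smad5, were examined for open chromatin in NMuMG cells. They are 5 of the 21887 protein-coding genes that the annotation places on the mouse autosomes, X and Y, and they were taken as a named list. Every listed peak inside a gene or within 20 kb of it was used. NMuMG is an established epithelial line of the mouse mammary gland. The cells carried no stated modification or treatment, were below passage 10 and were sampled at time 0 h. Accessible DNA was mapped with ATAC-seq, which uses the transposase Tn5 to cut and tag open chromatin, from 25000, 50000, 75000 and 100000 cells. Each cell number had 1 library, so the values carry no replicate error, and cell numbers were not tested against each other. The libraries were made to optimise the protocol, and 2 samples of a human line, MDA-MB-231, were not used here.

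SMAD proteins carry signals of the TGF-beta family from receptors at the cell surface to the nucleus. Activated type I receptors phosphorylate the receptor-regulated SMADs, which then bind the common SMAD, SMAD4, and regulate genes together with other factors. SMAD2 and SMAD3 mainly serve the TGF-beta and activin receptors, whereas SMAD1 and SMAD5 mainly serve the BMP receptors. In mammary epithelial cells such as NMuMG, TGF-beta is known for arresting growth and for inducing an epithelial-mesenchymal transition.

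Smad3 stood apart from the other members by its number of open regions. All 5 genes had an open region at a gene start, or at an annotated end for Smad2 and Smad4. The lists contained 26 peaks in the 5 windows at 25000 cells, 33 at 50000, 30 at 75000 and 39 at 100000. Of these, 16, 18, 16 and 22 lay in the Smad3 window. With overlapping peaks of a list merged first, the 5 windows held 23, 30, 26 and 28 peaks. With an equal number of highest-scoring peaks taken from each list, they held 26, 29, 28 and 30. Peaks of the 4 lists that overlapped by at least 1 bp were merged into 32 regions, and 21 of them had a peak in every library (65.6%, exact Clopper-Pearson 95% interval 46.8 to 81.4, counting error only). Over all merged regions of the genome this share was 46.3%. Smad3 contributed 14 of the 21, out of 16 regions (87.5%, interval 61.7 to 98.4). The other 4 genes together contributed 7 of 16 (43.8%, interval 19.8 to 70.1). Regions of a gene share their libraries and are not independent samples of it. Smad3 was set apart by its counts in these same data, so the intervals do not test a difference between it and the others.

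The files give each peak a whole-number score of the authors, whose basis the sources used here do not give. The lowest score in each list was 8, so that a place without a listed peak may have weaker signal, and no read counts come with the lists, so the depth is unknown. Scores are given here side by side and rank peaks within a list only. The lists contained 38878, 43832, 41509 and 45530 peaks, with median scores of 15, 16, 15 and 16 in the order of rising cell number. Of 6 epithelial marker genes, the start of Cdh1, Krt8 and Krt18 had a peak in all 4 libraries, and that of Epcam, Cldn7 and Esrp1 had none in any. Of 9 markers of fibroblasts, blood cells and endothelium, Col1a1 and Cd68 had one in all 4 libraries and the other 7 in none. Over all protein-coding genes, 44.9% had a start peak in all 4 libraries and 47.3% in none, so the epithelial count is near this background.

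**Figure D1:**
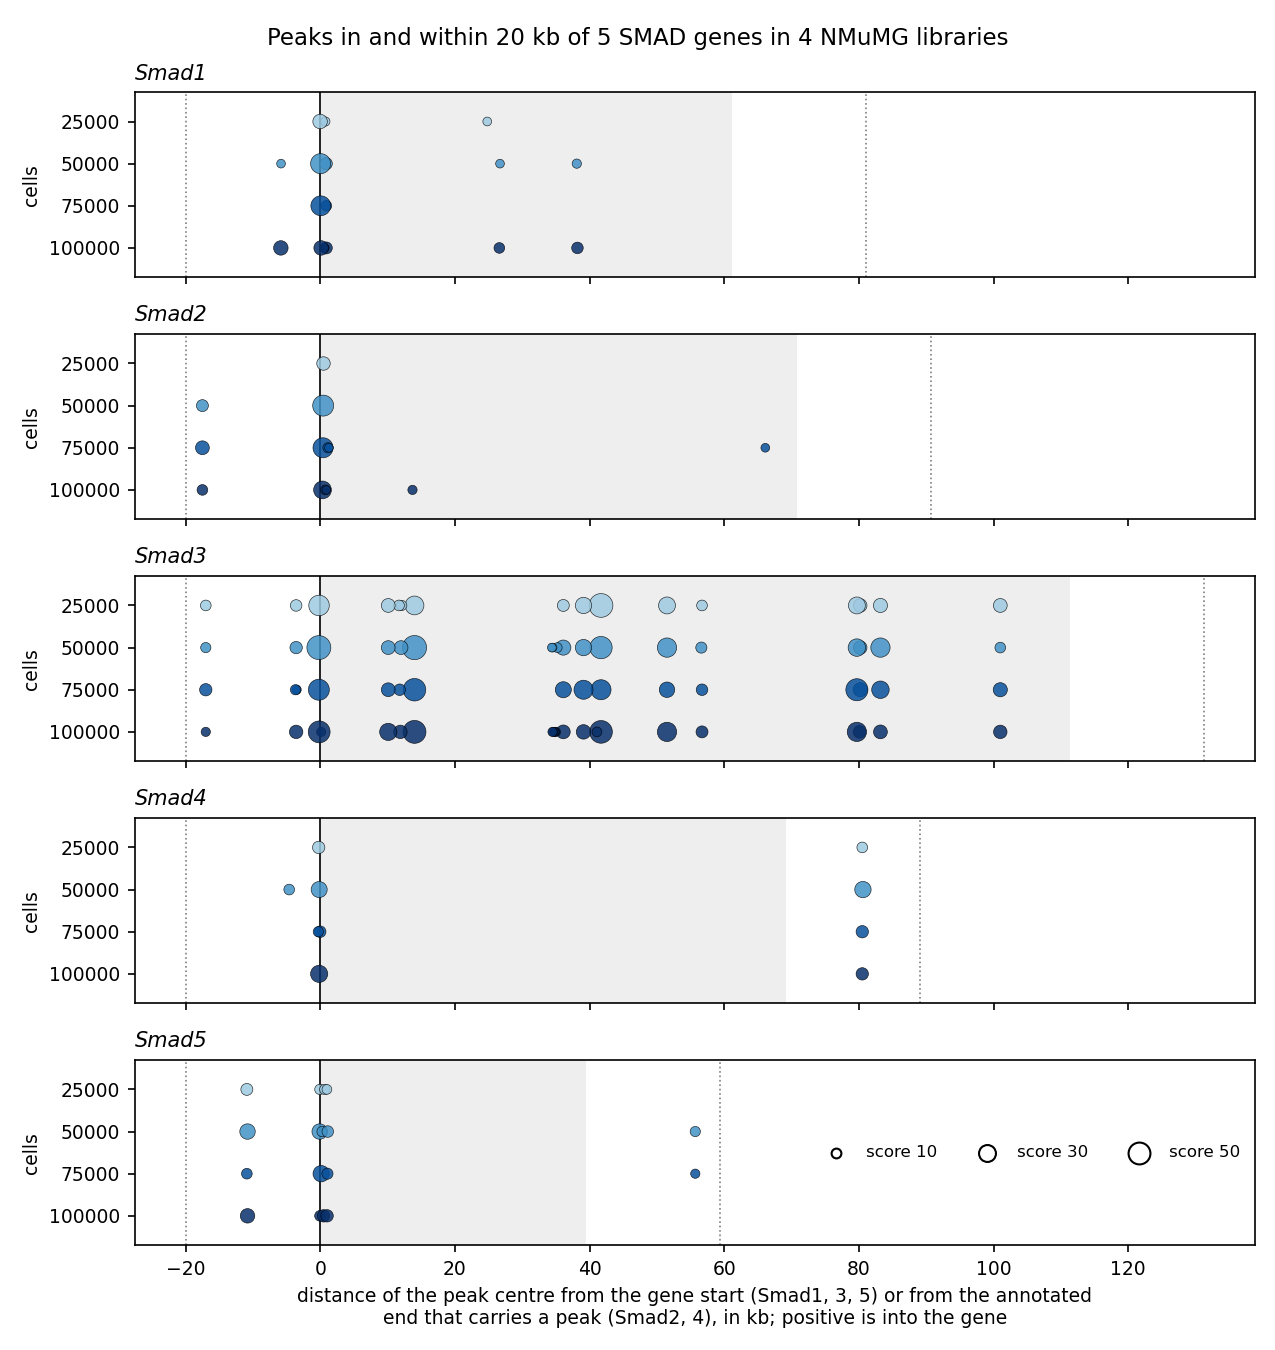
Peaks of the 4 libraries (rows, by number of cells) at each SMAD gene, by the distance of the peak centre in kb from the gene start, or, for Smad2 and Smad4, from the annotated end that has a peak. Circle area follows the score, grey marks the gene and dotted lines mark the 20 kb limits. Smad3 has a series of peaks along the gene in every library. The other 4 genes together have 16 regions, 5 at or near position 0, 5 elsewhere inside a gene and 6 in the flanks.

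A start peak, defined as a peak overlapping the 1 kb to either side of a gene start, was present in all 4 libraries at 5 of the 5 SMAD genes, against 44.9% of all protein-coding genes. When peaks below the median score of their list were left out, the count was 3 of 5, without Smad4 and Smad5. The share of all protein-coding genes was not counted under this filter, so the 3 of 5 has no background beside it. The starts of Smad1, Smad3 and Smad5 come from RefSeq. For Smad2 and Smad4 the tables used give no strand, and both annotated ends were searched. The base of the start itself, or of the end with a peak, lay inside a peak in each library for Smad1, Smad2, Smad3 and Smad4 and for the first and second of the 3 starts of Smad5. Ordered by the mean percentile of the start peak's score within its list, with ties at their midpoint, Smad3 came first at 91.3, then Smad2 at 79.5, Smad1 at 76.7, Smad4 at 62.1 and Smad5 at 56.6. The median over the 9826 protein-coding genes with a start peak in all 4 libraries was 79.0. Of those genes, 23.8% reached the value of Smad3, 49.2% that of Smad2, 54.0% that of Smad1, 75.8% that of Smad4 and 82.0% that of Smad5. Smad3 was the highest of the 5 in each list, but the order of the others changed between lists.

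**Figure D2:**
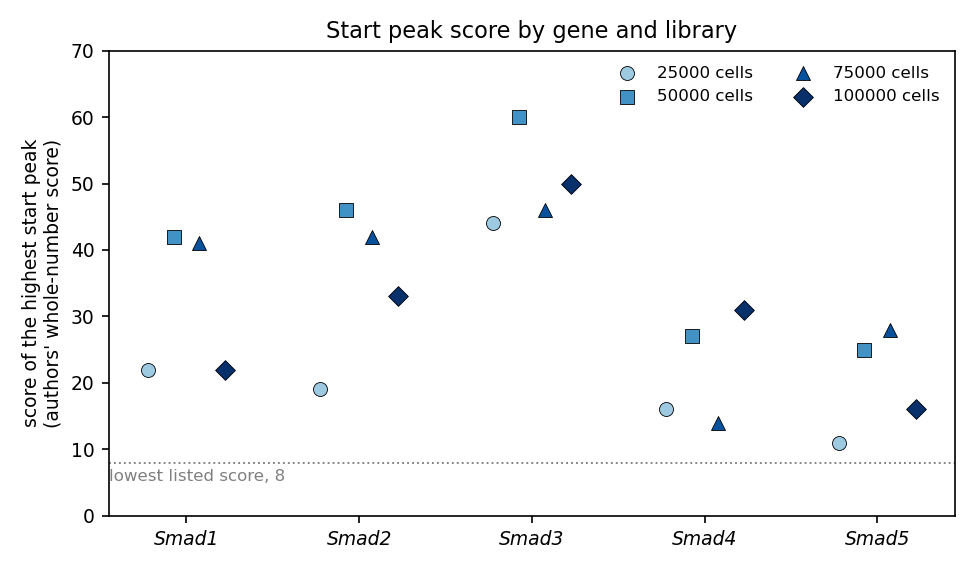
Score of the highest start peak of each SMAD gene in each library (symbols), with the lowest score that the lists contain as a dotted line. Smad3 lies at 44 to 60, above the other 4 genes in the same library, and Smad5 is the lowest member at 25000 cells, with 11.

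The 250 bases before the start of Smad3 and before the first listed start of Smad5 are shown because Smad3 and Smad5 had the highest and the lowest mean percentile of the start peak, and listed peaks cover both stretches. At 100000 cells the stretch of Smad5 lay under a peak of 12, not under the highest start peak of 16. They are RefSeq sequences of GRCm38.p6, the assembly of mm10, written 5′ to 3′ in the direction of transcription, with capitals for matches on either strand to a fixed set of 11 motifs.
Smad3, chr9:63757995-63758244, minus strand: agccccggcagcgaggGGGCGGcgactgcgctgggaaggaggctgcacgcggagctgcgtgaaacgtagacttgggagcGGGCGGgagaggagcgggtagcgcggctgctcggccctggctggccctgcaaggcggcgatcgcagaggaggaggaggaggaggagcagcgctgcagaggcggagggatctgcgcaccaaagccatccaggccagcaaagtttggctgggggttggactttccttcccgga
Smad5, chr13:56702760-56703009, plus strand: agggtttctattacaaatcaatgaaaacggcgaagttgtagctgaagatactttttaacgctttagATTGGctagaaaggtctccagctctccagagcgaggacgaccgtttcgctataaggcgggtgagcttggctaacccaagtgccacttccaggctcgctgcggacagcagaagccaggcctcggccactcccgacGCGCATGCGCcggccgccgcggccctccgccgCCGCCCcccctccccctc
Peaks covered all 250 bases in every library for both genes. The capitals mark the Sp1 box GGGCGG in 2 places in Smad3 and, read on the other strand as CCGCCC, in 1 place in Smad5. In Smad5 they also mark the CCAAT box, which reads ATTGG there, and the NRF1 motif, which is the run of 10 capitals. None of the matches overlap each other.

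Of the 32851 stretches of the same length before a listed RefSeq start, 32.7% contain the Sp1 box, 33.8% the CCAAT box and 0.782% the NRF1 motif. In Smad5 the NRF1 motif lies at positions -50 to -41 before the first start, and it is also within the 250 bases before the second. The stretch before the second start also holds the GC-rich SMAD site GGCGCC, at -19 to -14. The stretch before the third start holds the single SMAD box CAGAC, at -21 to -17, and 7 partly overlapping Sp1 boxes. The same stretch of Smad1 was covered by peaks over 250 bases in 3 libraries and over 222 bases at 100000 cells, and it held the Sp1 box and the CCAAT box once each. None of the stretches before the starts of Smad1 and Smad3 and the first start of Smad5 held the paired SMAD box GTCTAGAC (0.167% of all stretches), the single SMAD box (42.2%), the GC-rich SMAD site (9.59%), the AP-1 motif TGANTCA (6.75%), the CRE motif TGACGTCA (1.55%), the ETS motif CCGGAAG (6.91%), the E-box CACGTG (6.02%) or TATAAA (12.4%). A match is only a match of letters, and a missing match concerns this window alone. These stretches were rich in G and C, with 63.6% for Smad1, 69.2% for Smad3 and 60.0% for Smad5, against a median of 52.4% over all stretches. Their CpG dinucleotides were 1.08, 0.794 and 0.992 times the number expected from base composition, against a median of 0.373.

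Smad3 encodes a receptor-regulated SMAD of the TGF-beta and activin branch that binds DNA directly. The gene (ID 17127) lies at chr9:63646766-63757994 in mm10, on the minus strand, and the window contained 16 regions. The start region at chr9:63757701-63758550 scored 44 at 25000 cells, 60 at 50000, 46 at 75000 and 50 at 100000. A further 11 regions with a peak in all 4 libraries lay inside the gene and away from the start, between 10.1 and 101 kb from it, and 2 lay upstream. Regions of this kind inside the gene were absent from the other 4 SMAD genes. Among all protein-coding genes, 20.5% had at least 1 such region and 0.146% (32 genes) had at least as many as Smad3. These counts take no account of gene length. Smad3 spans 111229 bp, against a median of 17169 bp, and 2113 protein-coding genes are longer. The other 4 SMAD genes are all shorter than Smad3.

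In each library the highest-scoring peak inside Smad3 scored above the start peak, but it was not the same region in all of them. The region centred 41.7 kb into the gene, at chr9:63715951-63716650, scored 59, 52, 42 and 54 from 25000 to 100000 cells. The region 14.0 kb into the gene, at chr9:63743601-63744350, scored 37, 61, 53 and 55. The highest score of all 5 SMAD windows belonged to the first of these at 25000 cells and to the second in the other 3 libraries, and it exceeded the Smad3 start peak in each list, by the narrowest margin at 50000 cells (61 against 60). Neither region did so in every library, since the first scored below the start at 50000 and 75000 cells and the second at 25000 cells. A higher score inside the gene than at the start in every library was found at 7.16% of the genes with a start peak in all 4. With exon positions not used here, exons and introns were not separated. None of the inside regions overlapped another annotated gene, including the long non-coding RNA gene Gm51710, which lies within Smad3.

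Farther along Smad3, the region 79.9 kb from the start, at chr9:63677501-63678600, scored 30, 32, 51 and 39, and consisted of 2 overlapping peaks in each library. Its neighbour 83.2 kb from the start, at chr9:63674451-63675100, scored 21, 39, 32 and 20. The region 51.5 kb from the start, at chr9:63706151-63706850, scored 30, 39, 25 and 39. Each of these 3 was listed at every cell number, with no common order of the cell numbers. The region at 39.1 kb (chr9:63718601-63719250) scored 28, 28, 38 and 22, and the region at 10.1 kb (chr9:63747551-63748250) scored 20, 20, 20 and 31.

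The remaining shared regions of Smad3 were weaker, with scores of 9 to 27. Those inside the gene lay 11.9, 36.1, 56.7 and 101 kb from the start. The 2 upstream regions, 3.61 and 17.0 kb before the start, scored 14, 16, 11 and 19, and 12, 11, 16 and 9. The farther of the 2 lay in the long non-coding RNA gene Gm35941. Only 2 regions of the window were not shared by all libraries. The region 34.8 kb from the start was formed by 3 low peaks at 50000 cells and 5 at 100000 cells, with highest scores of 10 and 9. The other, at chr9:63716651-63717100, scored 10 at 100000 cells and directly adjoined the region at 41.7 kb.

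**Figure D3:**
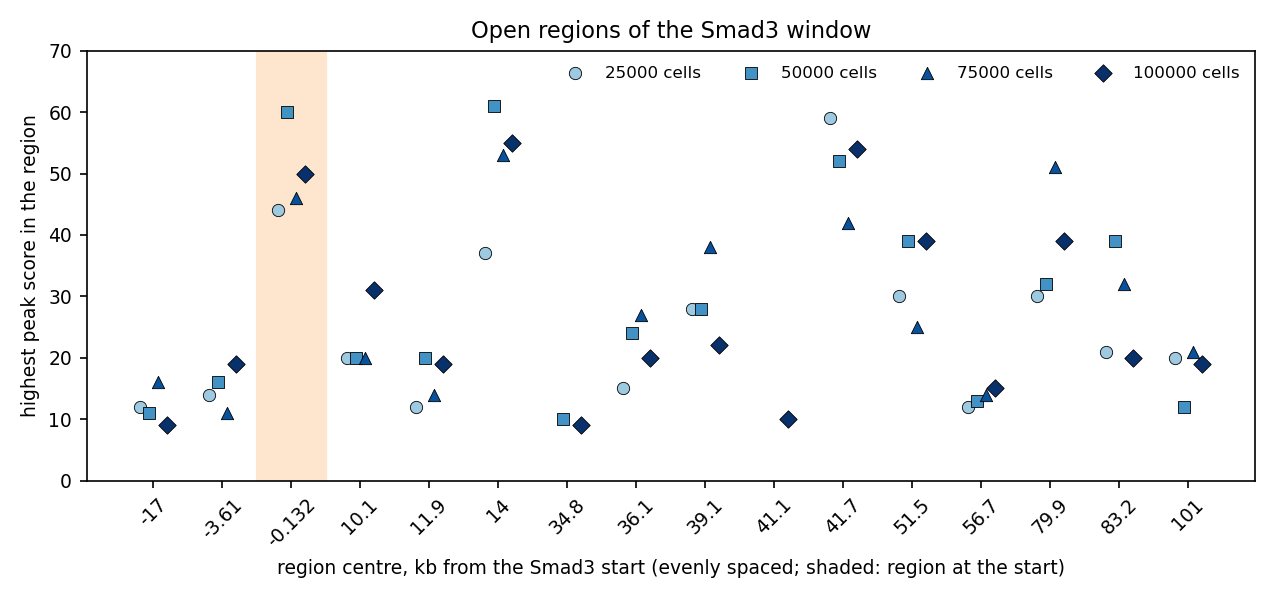
Highest peak score in each of the 16 regions of the Smad3 window, by library (symbols), ordered by the distance of the region centre from the gene start in kb, with the region at the start shaded. The regions at 14.0 and 41.7 kb reach 61 and 59, and those at 34.8 and 41.1 kb are missing from 2 and 3 libraries.

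Set against all genes, Smad3 had a dense window. Its 14 regions shared by all libraries correspond to 9.26 per 100 kb of gene and flanks, against a median of 1.76 over all protein-coding genes. At least 9.26 per 100 kb was found at 4.20% of genes. By number, 17 genes including Smad3 (0.0777%) had 14 or more, and of the 16 others 11 were longer than Smad3. The 5 shorter ones, Sfi1, Ahnak, Dagla, Plec and Pxn, also had more regions per 100 kb, and they are named here after their values were seen. The other members had 1.98 shared regions per 100 kb for Smad1, 0.904 for Smad2, 1.83 for Smad4 and 2.52 for Smad5. Of all genes, 46.0% reached the value of Smad1, 62.0% that of Smad2, 48.5% that of Smad4 and 36.2% that of Smad5. Outside the 5 members, Smad7 came close to Smad3 with 8.75 per 100 kb (6 shared regions), and Smad6 had 2.75 and Smad9 2.32.

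**Figure D4:**
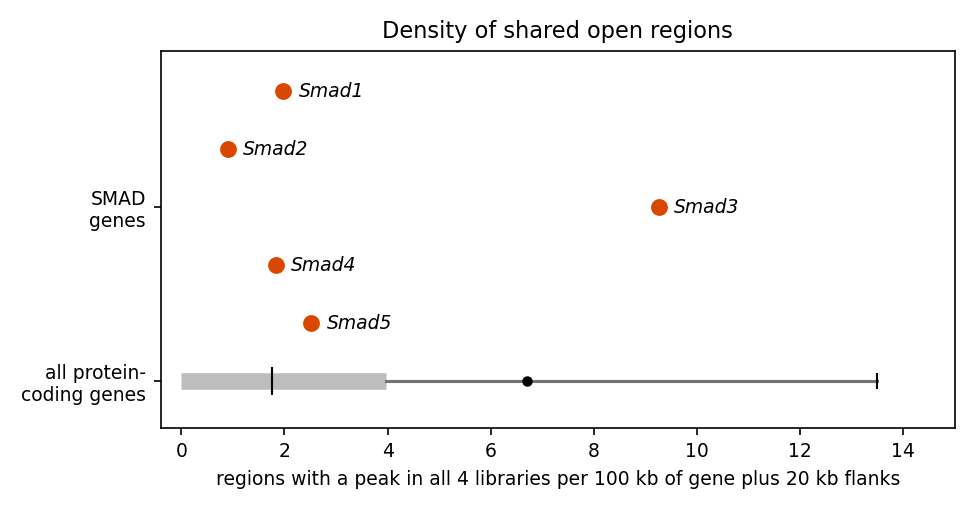
Regions with a peak in all 4 libraries per 100 kb of gene plus 20 kb flanks, for each SMAD gene (points) and for all protein-coding genes below them (bar from the 25th to the 75th percentile, tick at the median, dot at the 90th percentile, line to the 99th). Smad3 lies at 9.26, and Smad1, Smad2, Smad4 and Smad5 lie between 0.904 and 2.52, against a median of 1.76.

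Smad2 encodes the other receptor-regulated SMAD of the TGF-beta and activin branch, whose main form does not bind DNA directly. The gene (ID 17126) lies at chr18:76241090-76311748, and its only region shared by all libraries was at the lower annotated end. That region, chr18:76240951-76242550, scored 19, 46, 42 and 33 from 25000 to 100000 cells. It was a single peak of 1050 and 1150 bp at 25000 and 50000 cells. At 75000 and 100000 cells it consisted of 3 listed peaks. The highest of them was 1000 and 950 bp wide, and the others scored 8 to 11. The upper annotated end had no peak in any library. Over the 70659 bp of the gene, apart from the region at the lower end, there were 2 further listed peaks, neither of them shared, which scored 8 (75000 cells) and 9 (100000 cells, chr18:76254651-76254950). A region 17.2 kb below the gene scored 15, 20 and 12 from 50000 cells up and was not listed at 25000 cells. It overlapped the ends of the long non-coding RNA gene Gm52360 and the pseudogene Gm9028.

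Smad1 encodes a receptor-regulated SMAD of the BMP branch. The gene (ID 17125) lies at chr8:79338395-79399428 on the minus strand. The start region at chr8:79398951-79399750 scored 22, 42, 41 and 22 from 25000 to 100000 cells. A second, weaker region lay just inside the gene at chr8:79398251-79398900 and scored 9, 16, 12 and 15. These were the only regions of Smad1 found in all 4 libraries. Of the other 4 regions, 3 were listed at 50000 and 100000 cells only. They lay 38.2 and 26.6 kb into the gene, with scores of 9 and 14 and of 8 and 12, and 5.85 kb upstream over the end of the long non-coding RNA gene Gm51578, with scores of 8 and 22. The last, at chr8:79374401-79374800, scored 8 at 25000 cells. The 50000- and 100000-cell lists are also the 2 longest, and the part of list length in this pattern was not tested.

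Smad5 encodes a second receptor-regulated SMAD of the BMP branch, closely related to SMAD1. The gene (ID 17129) lies at chr13:56703010-56742378 on the plus strand, and RefSeq lists 3 starts, at 56703010, 56703052 and 56703668. All 3 fell in a single region at chr13:56702601-56704400, which was 1800 bp wide and consisted of 2 or 3 peaks in each library. Its highest score was 11, 25, 28 and 16 from 25000 to 100000 cells. The peak over the first start scored 11, 25, 28 and 12. The base of the third start was covered by peaks of 11 (25000 cells) and 16 (100000 cells) and was not inside a listed peak in the other 2 libraries. A second shared region lay 10.8 kb upstream of the first start, at chr13:56691851-56692500, outside annotated genes, and scored 15, 25, 12 and 22. At 25000 and 100000 cells this upstream region scored above the start region. No region lay inside Smad5 away from its starts, and a region 16.1 kb beyond the gene scored 11 at 50000 and 9 at 75000 cells.

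Smad4 encodes the common SMAD, the partner of both branches, and is a known tumour suppressor gene. It (ID 17128) lies at chr18:73634790-73703791. The region at the upper annotated end, chr18:73703501-73704450, scored 16, 27, 14 and 31 from 25000 to 100000 cells. It also overlapped the end of the neighbouring long non-coding RNA gene 4930578L24Rik, and in 3 of the 4 libraries the peak centre was nearer to that end than to the end of Smad4. The lower annotated end had no peak, and none lay elsewhere inside the 69002 bp of the gene. A second shared region, at chr18:73622901-73623550, lay 11.2 kb below the gene, outside annotated genes, and scored 12, 28, 16 and 16. At 50000 and 75000 cells it scored above the region at the gene end. A region above the gene, at chr18:73708151-73708650, had a score of 12 at 50000 cells only.

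Sharing between libraries went with score in the SMAD windows. The highest score of a region is the maximum over its libraries, and no listed peak scores below 8. Part of this pattern therefore follows from the definitions. The 21 regions found in all 4 libraries had a highest score of 15 to 61, with a median of 31, which is also the median over all shared regions of the genome. The 5 regions of a single library scored 8 to 12, with a median of 9, again that of all such regions. The 5 regions of 2 libraries reached 10 to 22, and the only region of 3 libraries, the one below Smad2, reached 20. The window limit of 20 kb left out regions beyond it. The region nearest to the limit on the inner side was the one 17.2 kb below Smad2, and the nearest on the outer side lay 23.5 kb below Smad5, with scores of 8, 10 and 8 at 25000, 50000 and 100000 cells. It was followed by a region 23.7 kb above Smad5 with scores of 23, 28, 27 and 25.

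Most other genes of the pathway also had a start peak. Where no strand was given for a gene, a peak at either annotated end was counted, so some may lie at the far end. Of 44 such genes, 37 had a start peak in all 4 libraries (84.1%, against 44.9% of all protein-coding genes), 1 in a single library and 6 in none. The list was written with earlier results on some of its genes known, so that the count is a description. It includes genes whose peak lay nearer to a neighbour, namely Smad7, Acvr1 and, in 3 libraries, Usp15, the last 2 named after their values were seen. Among the remaining SMAD genes, the inhibitory SMAD genes Smad6 and Smad7 had start peaks in all libraries, and Smad9, the third receptor-regulated SMAD gene of the BMP branch, had none. Smad6 scored 44, 48, 48 and 60 from 25000 to 100000 cells, but not at the same peak. At 25000 and 75000 cells the highest peak was centred 16 bp from the start. At 50000 and 100000 cells a separate peak was highest, centred 891 and 866 bp from the start. Smad7 scored 32, 25, 30 and 32, with peaks that lay nearer to the end of the long non-coding RNA gene Gm20544.

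Of 12 receptor genes, 9 had a start peak in all 4 libraries. Among these, Acvrl1 had no stated strand, and its counted peaks lay at the upper annotated end. The type I TGF-beta receptor gene Tgfbr1 scored 46, 54, 61 and 41, and the activin type II receptor gene Acvr2b 27, 48, 36 and 48. Bmpr1b, which encodes a type I BMP receptor, and Eng, which encodes the co-receptor endoglin, had no start peak, and the co-receptor gene Tgfbr3 had one of 12 at 100000 cells only. Of 7 ligand genes, 5 had a start peak in all libraries, led by Tgfb3 (30, 39, 30 and 22) and the activin subunit gene Inhba (34, 35, 19 and 29), and Bmp2 and Bmp4 had none.

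All 8 genes for SMAD partners had start peaks in all libraries. Zfyve9 was counted with scores of 8, 8, 11 and 10, at or near the lowest listed score. Its highest peak at 100000 cells did not overlap those of the other lists. The co-repressor gene Skil scored 58, 66, 63 and 92. The window of Foxh1, a SMAD cofactor gene, had peaks of 54, 59, 60 and 65, which lay close to the end of its neighbour Ppp1r16a as well. Of 8 regulators of SMADs and receptors, 7 had a start peak in all libraries, with Stub1, a ubiquitin ligase gene, at 47, 76, 61 and 87 and the pseudoreceptor gene Bambi at 59, 72, 36 and 61. The ubiquitin ligase gene Nedd4l had none at its annotated ends. All 6 target genes had them, with Id2 at 51, 89, 65 and 65 and Ccn2 at 55, 56, 50 and 56.

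The pathway gene most like each SMAD gene was taken as the gene with the smallest mean absolute difference in start-peak percentile over the 4 libraries. For Smad3 this was the target gene Id1, with a difference of 1.93 percentile points. It was the BMP receptor gene Bmpr2 for Smad5 (5.04 points), Tgfb3 for Smad1 (5.73), the activin receptor gene Acvr1b for Smad2 (7.37) and the acetyltransferase gene Ep300 for Smad4 (7.81). The value of Id1 does not come from a single place. At 25000 and 50000 cells its highest peak was centred 1125 and 1100 bp from the nearer annotated end. At 75000 and 100000 cells a separate peak, centred 24 bp from that end, was highest. With 4 libraries likeness of this kind is a description only.

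**Figure D5:**
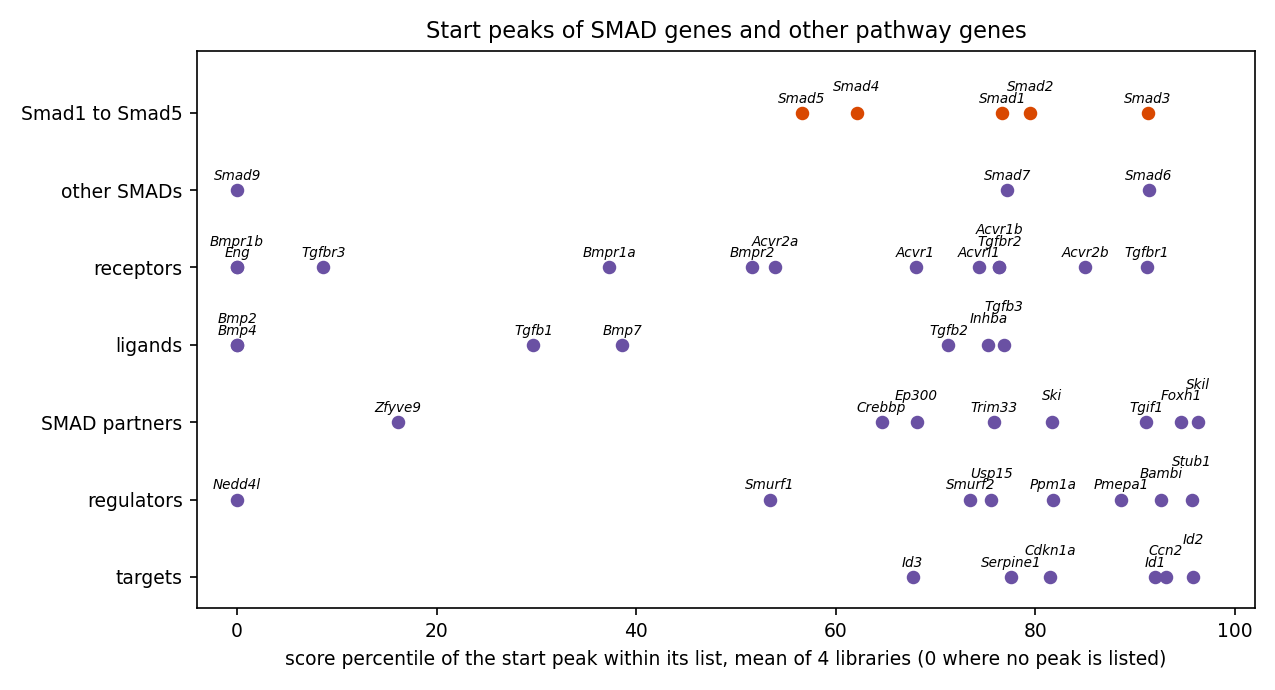
Score percentile of the start peak within its list, as the mean of 4 libraries, for Smad1 to Smad5 (top row) and for 44 other pathway genes by role (rows below), with 0 where no peak is listed. Smad3 lies at 91.3, beside Smad6 at 91.4 and Tgfbr1 at 91.2, and Smad5 is the lowest member at 56.6.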

How the data were processed

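ATAC-seq libraries of NMuMG cells had 1 library per cell number, which was read from the titles. The authors deposited 1 peak list per library with a whole-number score per peak, and no read counts, so the depth is unknown. Per the submitters' processing notes, bedtools 2.17.0, Picard 1.107, SAMtools, Bowtie 0.12.8 and cutadapt were used with mm10 and hg19, and mm10 was taken for mouse. The peak caller's settings, any shift for Tn5 insertion and any thinning of reads are not stated in those sources.

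Peaks were used as deposited. Regions were merged, counted and compared with all genes in Python 3.11.15 (numpy 2.4.6, pandas 2.3.3, scipy 1.17.1, matplotlib 3.10.9), and the overlap functions were tested on simulated data. Gene extents came from a RefSeq table of GRCm38.p6. Starts came from RefSeq promoters for 17492 of 21887 protein-coding genes, and both annotated ends were used for the other 4395, among them all on chromosome 18, where a peak at either end counts as a start peak. The background counts mix both kinds of gene.

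The members and lists were chosen with earlier results of these data known. Regions were named when found in all 4 libraries with a score of 30 or more in at least 1, or when at a start, with the highest region of a single library per gene. Other regions were named after their values were seen. Pathway genes were named as the 2 with the highest mean start-peak percentile per role and all without a start peak, and as the gene closest to each SMAD gene. Any others were named after their values were seen.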

Additional observations from a re-analysis of the deposited data

How the results depend on the processing

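Of 90 values under alternatives, 82 stayed within 1.5 times the reported count. The other 8 came from keeping the peaks at or above the median score of their list. The peaks in the 5 windows then numbered 15, 19, 17 and 21 in the order of rising cell number, against 26, 33, 30 and 39, since fewer peaks were counted. Regions shared by all libraries numbered 11 against 21, with 9 against 14 for Smad3 and 2 against 7 for the other 4 genes. A start peak in all libraries remained at 3 of 5 SMAD genes, Smad4 losing it at 75000 cells and Smad5 at 25000 cells. It remained at 29 pathway genes, against 37, and the share over all protein-coding genes was not counted under this filter. At least as many shared regions per 100 kb as Smad3 were found at 763 to 1284 genes, against 920. Using both annotated ends for every gene, added after seeing the data, gave 5 SMAD and 34 pathway genes. Leaving out each library gave 21 or 22 shared regions and 14 for Smad3. No paired analysis was possible because each cell number has 1 library. Unknown depth limits any reading of missing peaks.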
